A study of Drosophila melanogaster with 4 samples.

Results

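The CBP-bound regions described here were listed in *gd7* embryos and overlapped no region listed in wild-type embryos by 1 bp or more. They numbered 724 of the 1939 *gd7* regions (37.3%), and the remaining 1215 *gd7* regions overlapped at least 1 of the 3013 wild-type regions. CBP was mapped by ChIP-seq with an affinity-purified rabbit antibody against Drosophila CBP in embryos aged 2 to 4 h. Wild-type embryos were *w1118*, and *gd7* embryos came from mothers homozygous for the *gd7* allele. In *gd7* embryos Dorsal does not enter nuclei, so that ventral and lateral cells as well as dorsal ones take the dorsal ectoderm fate. Each genotype had 1 CBP library, made from about 10 pooled immunoprecipitations, and 1 input library.

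CBP, encoded by *nejire*, is a coactivator with histone acetyltransferase activity that sequence-specific transcription factors bring to enhancers and promoters. Dorsal is the NF-κB family protein that forms a nuclear gradient with its peak on the ventral side, where it activates mesoderm and neuroectoderm genes and represses genes of the dorsal side. Where nuclear Dorsal is absent, the BMP-type ligand Dpp is expressed, and its signal, passed on by the Smad proteins Mad and Medea, turns on genes of the dorsal ectoderm and of the amnioserosa, the extraembryonic tissue at the dorsal midline.

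The values are log2 enrichments of ChIP over input. The members were chosen by these same listed values, since a region entered a list only where its enrichment was among the highest 5% of the library over at least 200 bp. Every difference between members and other regions is therefore a description, and with 1 library per genotype no test between genotypes was possible. A region absent from the wild-type list fell under the cut-off or under the minimum length in wild-type embryos, where its enrichment is not given. It was not necessarily free of CBP there. The study measured wild-type values within its *gd7* regions and failed to detect CBP in very few of them. For that reason it defined no class of regions unique to *gd7*. The lowest listed value was 1.88 in wild-type and 1.93 in *gd7* embryos.

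The rule drew a sharp line through a continuous range. The member nearest to a wild-type region, on 2L from 13211660 to 13211940, reached 2.20 and lay 35 bp from a wild-type region of 2.60. The next nearest, on X from 4834725 to 4834970, had 2.02 at a gap of 70 bp from a wild-type region of 2.06. A further 3 members, all on 3R and starting at 1496425, 12904920 and 27047195, lay at gaps of 105 bp with values of 2.04, 2.04 and 2.16. On the other side of the line, 5 *gd7* regions only touched the end of a wild-type region and were counted as shared. Their values ran from 1.98 to 2.35, against 2.02 to 2.20 for the 5 members just named.

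The regions listed in *gd7* alone were weaker and narrower than the shared ones, but not uniformly so. Their values ran from 1.94 to 4.01 with a median of 2.37 (quartiles 2.17 and 2.66), against a median of 2.69 (2.33 and 3.12) and a maximum of 5.06 for shared *gd7* regions. Their widths ran from 210 to 1890 bp with a median of 385 bp (quartiles 280 and 569 bp), against a median of 490 bp and a maximum of 5495 bp for shared regions. Together they covered 342755 bp, or 29.2% of the sequence listed in *gd7*. Members at the smallest width, 210 bp, were 56 (7.73%), close to the 6.01% among shared regions.

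The share of *gd7* regions without a wild-type partner fell steadily with enrichment and with width. Among regions under 2, 36 of 60 were members (60.0%, 95% Wilson interval 47.4 to 71.4%, for counting error alone). From 2.5 to 3 the share was 34.3% (30.5 to 38.2%), and at 3.5 or more it was 9.03% (5.35 to 14.8%), or 13 of 144. By width, the share was 48.8% for regions under 300 bp and 18.6% for those from 1000 to under 2000 bp, while 0 of the 43 regions of 2000 bp or more were members, for which the 95% Wilson interval reaches 8.20% and a floor of 3 regions of 43 gives 6.98%. No member was among the 10 strongest *gd7* regions, 2 were among the strongest 50 and 18 among the strongest 200. Width and value rose together among members (Spearman's rho 0.62 across 724 regions of 1 library) as among shared regions (0.67), and regions of 1 library share its depth and smoothing.

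**Figure D1:**
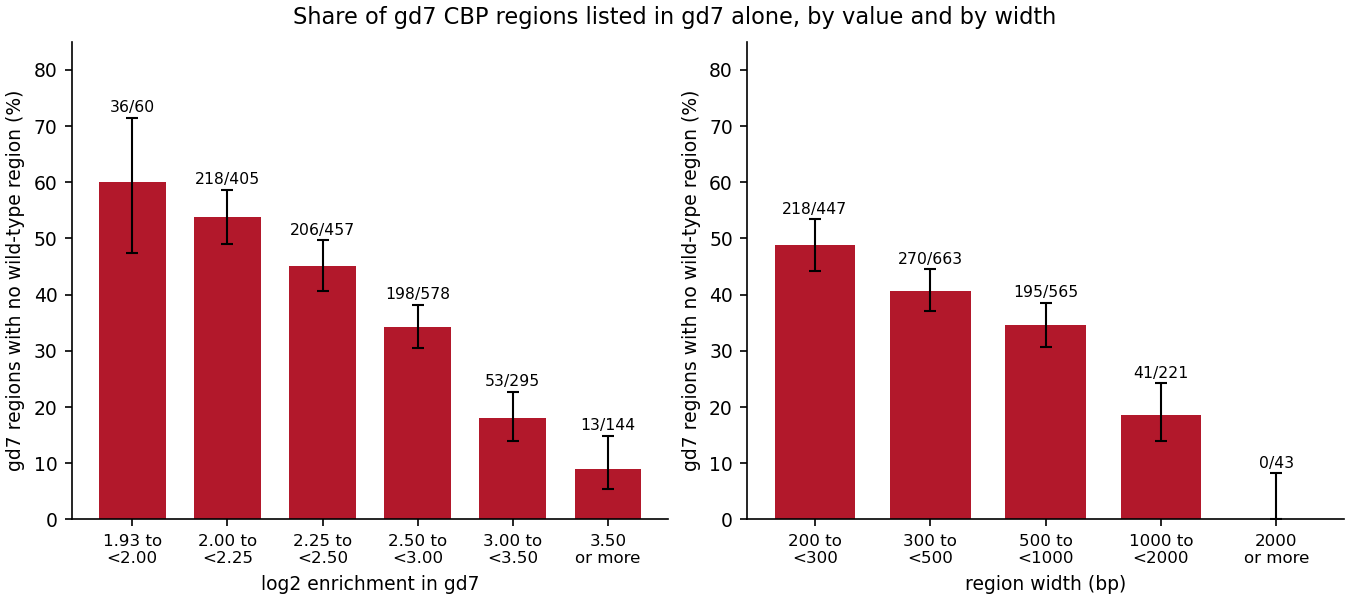
Percentage of gd7 CBP regions that overlap no wild-type region, in classes of log2 enrichment (left) and of region width in bp (right); bars give the share, black lines its 95% Wilson interval for counting error, and the numbers the members over all gd7 regions of the class. The share fell from 60.0% under a value of 2 to 9.03% at 3.5 or more, and was 0 at widths of 2000 bp or more.

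Taking the weakest wild-type region as a yardstick, 91 members exceeded it by more than 1 on the log2 scale, that is, were over 2.88 (12.6%, 95% Wilson interval 10.4 to 15.2%), against 28.2% of all *gd7* regions. This is not a measured difference between genotypes. These 91 members were wider than the rest, with a median of 700 bp and a range from 280 to 1890 bp. Within 10 kb of a wild-type region lay 65 of the 91, a share near the 69.3% over all 724 members. All chromosome arms held members. The share of *gd7* regions that were members was highest on 3L, at 42.9% (38.3 to 47.7%, 181 of 422), and lowest among the large arms on X, at 29.4% (24.6 to 34.8%, 91 of 309). On chromosome 4, 1 of 8 regions was a member.

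The strongest member was on 3L from 11229295 to 11230800, 1505 bp wide, with 4.01. It lay 5075 bp from a wild-type region nearest to *Ir68a*, an ionotropic receptor gene, and that wild-type region itself was higher in *gd7*, by 1.64 from 2.27. The second, on 3R from 20123040 to 20123915, had 3.85 and lay 24115 bp from the nearest wild-type region, in a stretch for which gene names were not used here. The third, on 3R from 4030530 to 4031790 with 3.76, lay 13615 bp from a region of the GATA factor gene *grn*, which had 3.95 in wild-type and changed by -0.95 in *gd7*. A member of almost equal height lay on 2L from 18486650 to 18487385, 1820 bp from a region of *CG10283* that changed by only 0.16. On X from 19679730 to 19681515, a member of 3.76 and 1785 bp lay 630 bp from a wild-type region that was higher by 1.24 in *gd7*.

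Of the other 5 of the 10 strongest, the member on 2R from 8342110 to 8342950 (3.75) lay 245 bp from a region of *Lac*, which encodes an immunoglobulin protein of septate junctions, and that region was not listed in *gd7*. A member of 3.67 lay 1085 bp from a region of the Toll-family receptor gene *Tollo*, and a further one of 3.47 lay 10185 bp away on the same side. A member of 3.66 on 3L from 4694690 to 4695250 stood 68355 bp from the nearest wild-type region, one of the tyrosine kinase gene *Src64B*, and 281085 bp from the nearest shared *gd7* region. Another member, from 4696265 to 4697630 with 3.19, lay next to it. The last 2 were on 3L from 732095 to 733530 (3.65), 4935 bp from a region of *CG13897*, and on 3R from 5224380 to 5225430 (3.62), 1470 bp from a region of the ribosomal protein gene *RpL34b*. Of the 10, 9 exceeded the wild-type value of their own nearest wild-type region, the exception being that on the *grn* side. Since the 10 were picked for their height, this follows largely from the choice. Over all members, 311 of 724 (43.0%) exceeded the value of their nearest wild-type region.

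**Figure D2:**
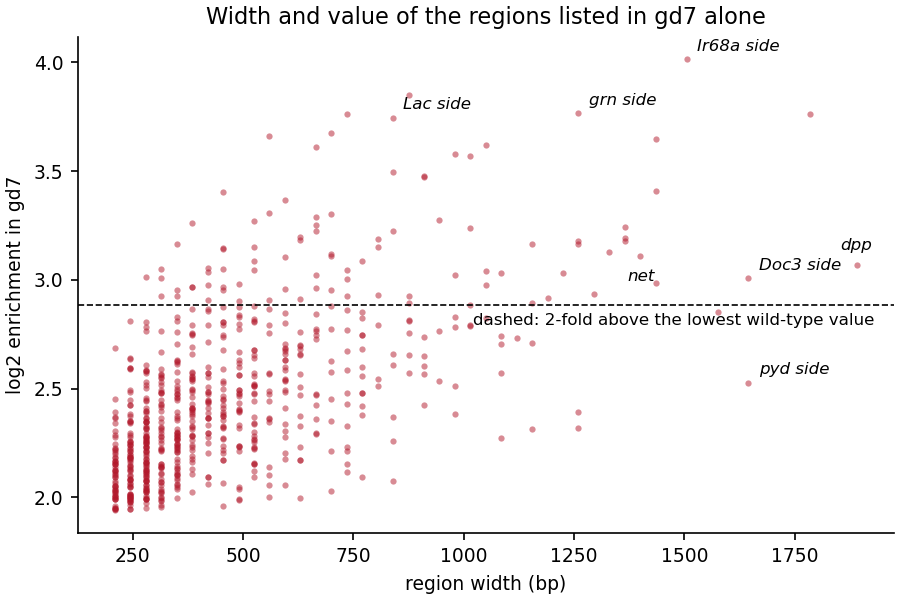
Log2 enrichment in gd7 against region width in bp for the 724 regions listed in gd7 alone, one point per region; the dashed line is at 2.88, 1 log2 unit over the weakest wild-type region, and labels give the region's own nearest gene or, with the word side, that of its nearest wild-type region. Values rise with width up to the region of 4.01 on the Ir68a side, and the widest region, at dpp, has 3.07.

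Members of 1000 bp or more numbered 41, of which 26 were above 2.88. The widest of all, 1890 bp with 3.07, lay on 2L from 2460640 to 2462530 and had *dpp* as its nearest gene. A 1645 bp member of 3.01 lay 630 bp from a region of *Doc3*, and one of the same width with 2.53 lay 3920 bp from a region of *pyd*, which encodes the ZO-1 protein of cell junctions. A member of 1575 bp (2.85) lay 350 bp from a region of the semaphorin gene *Sema-5c*. Among the rest of the 10 widest, that on 2L from 89075 to 90475 (1400 bp, 3.11) had as its nearest gene *net*, which encodes a bHLH protein known from wing vein patterning. The others were the *Ir68a*, *CG13897* and X members named above, with members of 1435 bp each on 3R from 11854255 (3.41) and on X from 17606085 (2.99).

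Members lay somewhat farther from wild-type regions than shared *gd7* regions lay from the next wild-type region. The median gap from a member to the nearest wild-type region was 3885 bp (quartiles 1260 and 13221 bp). For shared *gd7* regions, the median gap to the nearest wild-type region that they did not overlap was 2905 bp. Within 10 kb of a wild-type region lay 502 members (69.3%), and within 1 kb lay 149 (20.6%, 17.8 to 23.7%). For shared *gd7* regions these shares were 74.5% and 28.3% (25.9 to 30.9%). The reverse distance was longer. The median gap from a wild-type region listed in wild-type alone to the nearest *gd7* region was 19828 bp, and 35.1% of those 1796 regions lay within 10 kb of one, although fewer regions were listed in *gd7* and the distances rise where a list is shorter.

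The median gap from a member to the nearest shared *gd7* region was 7770 bp. Within 1 kb of one lay 117 members (16.2%), within 5 kb 304 (42.0%) and within 10 kb 388 (53.6%). Members within 1 kb had a median value of 2.37 and those farther away also 2.37, with median widths of 420 and 385 bp.

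**Figure D3:**
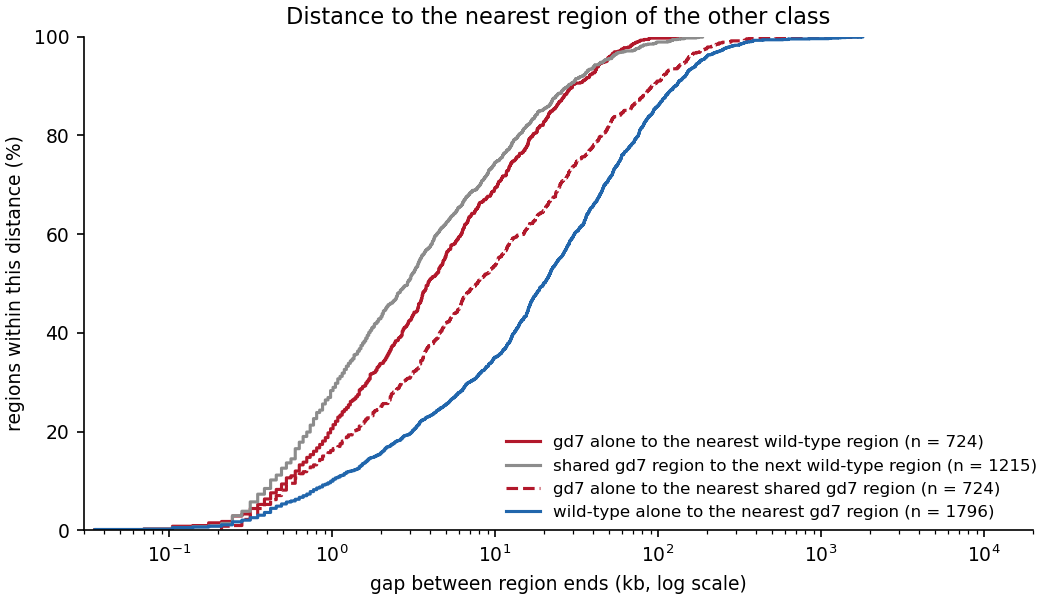
Cumulative percentage of regions against the gap between region ends in kb (log scale), for gd7-alone regions to the nearest wild-type region, for shared gd7 regions to the next wild-type region that they do not overlap, for gd7-alone regions to the nearest shared gd7 region, and for wild-type-alone regions to the nearest gd7 region. The median gap was 3885 bp for gd7-alone regions and 19828 bp for wild-type-alone regions.

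A minority of members stood far from any wild-type region. The gap was over 50 kb for 30 members, whose median value was 2.38, near that of all members, and 5 of which were above 2.88. The farthest, on 2L from 18305280 to 18305700 with 2.44, lay 152495 bp from a wild-type region of *Socs36E*, a gene of a JAK/STAT pathway inhibitor. On 3R a member from 13219990 to 13220515 with 3.15 lay 139615 bp away. The next 3 were on 2L from 7632905 (2.26, 88410 bp, with *CG13792* as its own nearest gene), on 3L from 40215 (2.87, 87675 bp) and on 3L from 13830565 (2.25, 82180 bp).

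Start sites could be assigned directly to 70 members, all on 2L up to position 8872675, where the nearest gene is given for every *gd7* region. In that stretch 10 members (14.3%, 7.95 to 24.3%) were centred at most 500 bp from a start site, against 46 of 100 shared *gd7* regions (46.0%, 36.6 to 55.7%). The 10 were at *CG15625* (3.61), *ush* (2.73), *Mnn1* (2.68), *nrv2* (2.47), *CG3036* (2.24), *lid* (2.21), *CG11050* (2.19), *CG42533* (2.16), *CG42762* (2.13) and *LanB1* (1.98). Only that at *CG15625* was above 2.88. Of the genes, *ush* encodes a zinc finger partner of the GATA factor Pannier in dorsal tissues, *Mnn1* menin, *nrv2* a sodium pump subunit, *lid* a histone demethylase and *LanB1* a laminin chain. Of the wild-type regions nearest to members, 51.8% on 2L, 2R and 3L were within 500 bp of a start site against 55.2% of all wild-type regions on those arms.

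The wild-type regions near members were retained in *gd7* more often than wild-type regions elsewhere. For 436 members (60.2%) the nearest wild-type region overlapped a *gd7* region, against 40.4% of all wild-type regions. For each wild-type region listed in both genotypes, its own value was subtracted from the highest overlapping *gd7* value. For 54 members (7.46%, 5.76 to 9.60%) the nearest wild-type region was more than 2-fold higher in *gd7*, against 4.12% of all wild-type regions. For 17 members (2.35%) it was more than 2-fold lower, against 2.39%. A wild-type region not listed in *gd7* had no difference and could not count as higher or lower, so these shares leave out regions lost from the list. The 724 members had 522 distinct nearest wild-type regions, and counted once each 36 of these (6.90%, 5.02 to 9.40%) were higher by over 2-fold and 13 were lower by as much. Among the nearest regions that were listed in both genotypes, the median difference was 0.24 per member and 0.06 over all wild-type regions listed in both.

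Split by distance, the 691 wild-type regions within 10 kb of a member overlapped a *gd7* region in 64.7% of cases (61.1 to 68.2%), against 33.2% (31.3 to 35.1%) of the 2322 wild-type regions farther away. They were more than 2-fold higher in 8.39% (6.55 to 10.7%), against 2.84% (2.24 to 3.60%), and more than 2-fold lower in 2.75%, against 2.28%. These shares depend on the overlap, since only regions listed in *gd7* could count as higher or lower. Among the regions so listed, 58 of 447 were higher near members and 66 of 770 farther away, while 19 and 53 were lower. The wild-type values of near and far regions were alike, with medians of 2.46 and 2.40. For members within 1 kb of their nearest wild-type region that region was more than 2-fold higher in 8.05% of cases (4.67 to 13.5%). For gaps from 1 to 5 kb the share was 11.9% (8.47 to 16.5%), for 5 to 20 kb 3.52% (1.71 to 7.08%) and beyond 20 kb 4.03% (1.73 to 9.09%). Among nearest regions listed in *gd7* the counts were 12 of 98, 30 of 173, 7 of 117 and 5 of 48, with no steady fall, against 124 of 1217 over all wild-type regions. These values come from the same pair of libraries as the rule.

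**Figure D4:**
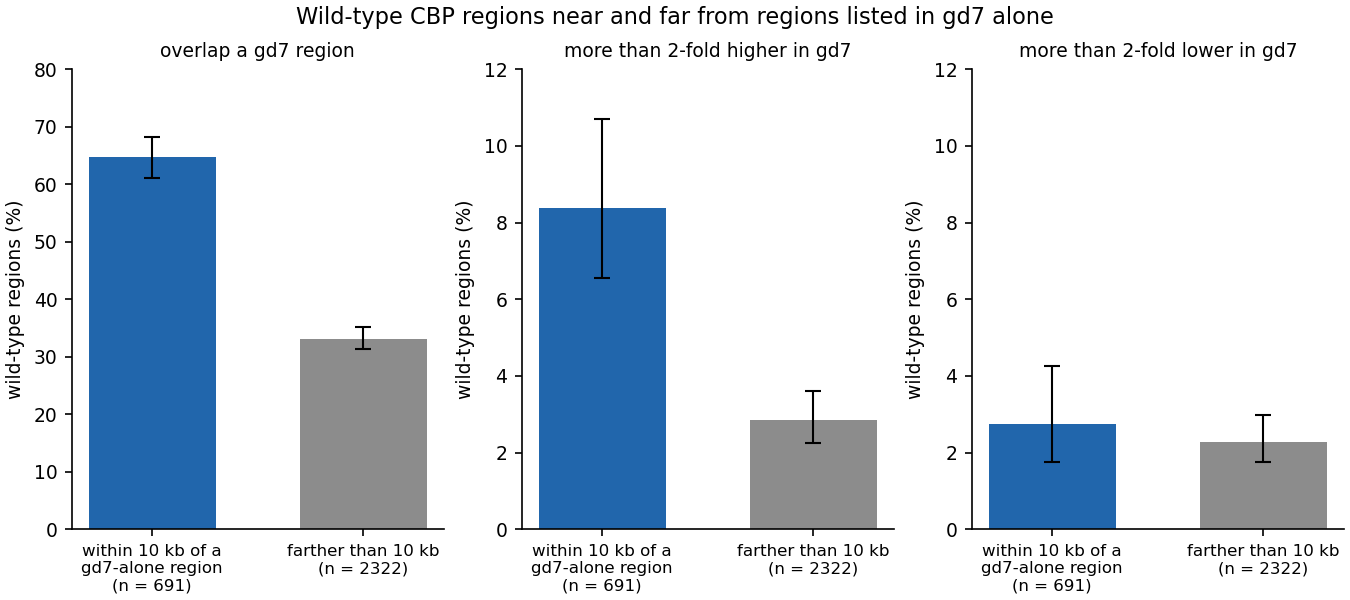
Percentage of wild-type CBP regions that overlap a gd7 region, are more than 2-fold higher in gd7 or are more than 2-fold lower in gd7, for regions within 10 kb of a gd7-alone region and for those farther away; black lines give 95% Wilson intervals for counting error. Overlap was 64.7% near gd7-alone regions and 33.2% elsewhere. Regions 2-fold higher made up 8.39% and 2.84%, and regions 2-fold lower 2.75% and 2.28%, but regions not listed in gd7 could count as neither.

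Where gene names were known, the wild-type regions that were more than 2-fold higher in *gd7* beside a member included those of *bbg*, a PDZ protein gene, with a difference of 1.69 and a member of 2.46, and of *dnt*, a Ryk-type receptor gene, with 1.51 and a member of 3.17. They also included *tup*, which encodes a LIM homeodomain factor, with 1.51 and members of 3.18 and 2.55, and *CycE*, the cyclin of S phase entry, with 1.24 and a member of 2.05. The epidermal transcription factor gene *grh* had 1.29 and a member of 2.00, the Notch coactivator gene *mam* 1.09 and 2.14, and *fra*, a netrin receptor gene, 1.07 and 2.25. In the opposite direction, wild-type regions that fell by over 2-fold in *gd7* had members beside them at *noc* (-1.60, 3 members, the highest 2.44), *opa* (-1.48, 2.37), *cad* (-1.40, 2.27), the ERK phosphatase gene *Mkp3* (-1.12, 3.37), *emc* (-1.06, 2 members, the higher 3.31) and *Antp* (4 members at 3 such regions). These examples were chosen after their values were seen.

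Members grouped into 522 loci when neighbours with ends at most 10 kb apart were joined. Single members made up 392 of these and pairs 95. Another 35 loci held 3 or more members, 142 members in all (19.6%), over spans from 2765 to 43330 bp. Under the same joining rule, 32.3% of shared *gd7* regions fell into loci of 3 or more shared regions. The shared regions were more numerous, and a fixed joining distance groups more regions of a longer list, so the 2 shares are not directly comparable. Members in dense loci were like the single ones in height (median 2.37 against 2.36) and in width (420 against 385 bp). Of the 35 loci, 18 held no wild-type region at all within their span, and the other 17 held 28 between them. In the 35 spans lay 164 *gd7* regions, which include the 142 members. The spans were drawn around members, so the larger *gd7* number follows from the rule. Wild-type regions just outside a span were not counted, such as that of *Lac*, 245 bp away.

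The largest group lay on 3L from 8995525 to 9038855 over the 3 *Doc* genes, which encode T-box factors needed in the amnioserosa and dorsal tissues. In these 43330 bp the wild-type list had 3 regions, 1 nearest to each gene, with 3.09 at *Doc3*, 3.98 at *Doc2* and 3.08 at *Doc1*. The *gd7* list had 16 regions, the same 3 and 13 members. The regions at the 3 genes were no higher in *gd7* but lower, at 2.31, 3.13 and 2.95. The members stood between and beside them. From *Doc3* towards *Doc1* their values were 3.01, 2.48, 2.23, 2.54, 3.22, 2.49, 3.18, 2.28, 2.07, 1.96, 2.75, 2.79 and 2.28. The 3 members above 2.88 were the outermost on the *Doc3* side (1645 bp wide), one 875 bp from the *Doc2* region (840 bp) and one about midway between *Doc2* and *Doc1* (1365 bp). CBP sequence listed in the span came to 11515 bp in *gd7* and 1960 bp in wild-type, with mean values of 2.60 and 3.38. The span was set by the members, so the larger *gd7* length follows largely from the choice.

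The second group, 8 members on 3R from 931000 to 952140, lay beyond a wild-type region of *corto*, a chromatin protein gene, and among regions of *CG12007* (*RabGGTa*, a subunit of the enzyme that prenylates Rab proteins). The member values ran from 2.05 to 3.25, and the 2 highest, 3.12 and 3.25, stood next to each other at one end. Of 3 wild-type regions within the span, 2 were listed in *gd7*, and one of them was higher by 1.04. A further wild-type region 560 bp beyond the last member had 3.44 and was not listed in *gd7*, so that regions listed in 1 genotype alone alternated over a short distance. The third group, 6 members on 2R from 7481495 to 7492205, lay among regions of *tou*, which encodes a chromatin protein. Its members were narrow, together 2030 bp, with values from 1.94 to 2.88, and of the 3 wild-type regions in or beside the span, 2 differed by -0.43 and 0.31 and 1 was not listed in *gd7*.

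Groups of 5 were found in 5 places. On 2R from 15142890 to 15161020, beside *rib*, which encodes a BTB protein of tracheal and salivary gland tube formation, the members had 2.88, 2.79, 2.46, 2.46 and 2.02. The strong wild-type region at *rib*, of 3.97, changed by -0.92 in *gd7*. Both sides of *CG15233* held such a group, in the stretch of *jing*, a zinc finger gene. From 2398935 to 2415770 on 2R the members had 2.93, 2.85, 2.32, 2.53 and 2.56 around a *jing* region that was higher by 0.68 and had widened from 350 to 1925 bp. From 2473310 to 2493715 they had between 2.01 and 2.34, with no wild-type region inside, beside a *jing* region that differed by -0.84. On 3R from 802445 to 820715, between the wild-type regions of *CG1124* and *CG2022*, the values were between 2.11 and 2.54, again with no wild-type region inside. In the release 6 gene order, where these genes are named *Jhbp1* and *plh*, *CG14662* is the protein-coding gene between them. On 3R from 11838960 to 11860415 the members had between 2.31 and 3.41, and the 1 wild-type region among them, of 4.05, was not listed in *gd7*.

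Of the 9 groups of 4, those described here were at *simj*, which encodes the p66 subunit of the NuRD complex, and at *Btk29A*, a Tec family kinase gene. At *simj* the members, from 10658550 to 10672305 on 3L, had 2.36, 2.39, 2.00 and 2.40, interleaved with 3 wild-type regions all listed in *gd7* with differences of at most 0.31. At *Btk29A*, on 2L from 8274735 to 8287930, the members had 2.48, 3.11, 2.12 and 2.38 around 1 wild-type region that differed by 0.21. A group on 3R from 4520250 to 4527355, with values from 2.12 to 2.70, covered as much sequence as that at *Btk29A*, 2205 bp.

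**Figure D5:**
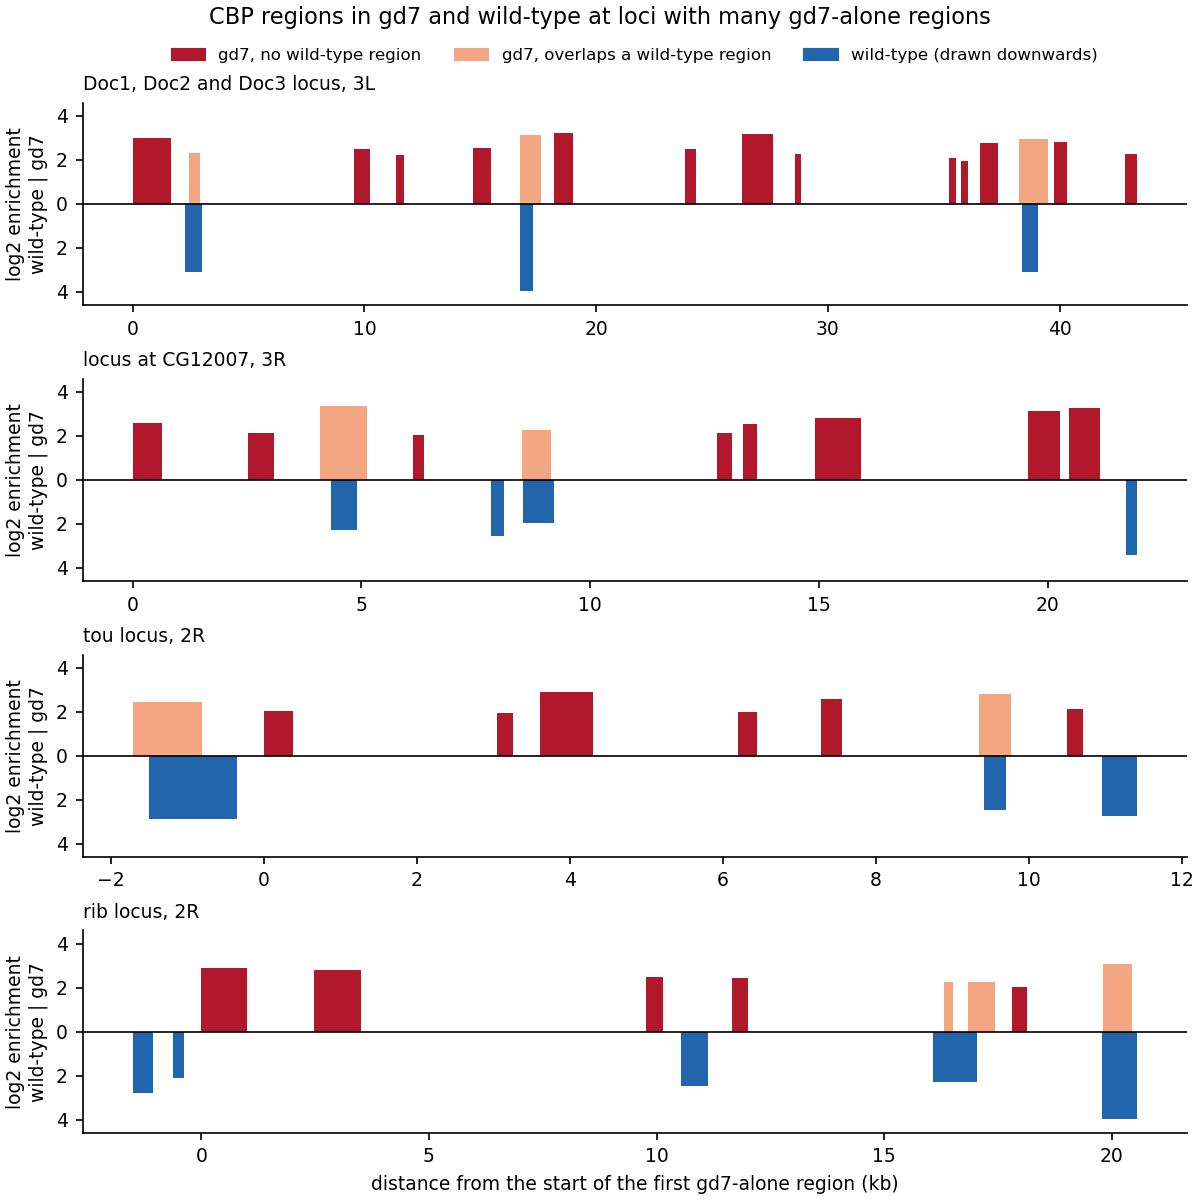
CBP regions at 4 of the loci with the most members; the horizontal axis is the distance in kb from the start of the first gd7-alone region, bars above the line are gd7 regions and bars below it wild-type regions, each as wide as the region and as high as its log2 enrichment. At the Doc genes 13 gd7-alone regions of 1.96 to 3.22 surround the 3 regions that both genotypes share.

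Genes of the developmental lists were matched through the region's own nearest gene or, within 10 kb, through that of its nearest wild-type region. Nearest genes were known for 535 of the members' nearest wild-type regions. For the other 189, on X, on chromosome 4 and on the distal part of 3R, no gene was assigned, so the counts are incomplete. All *gd7* regions at the listed genes were not counted. The member counts therefore cannot be set against the 37.3% of *gd7* regions that were members, and show neither excess nor lack. The lists together held 72 members at 39 genes, and 10 of the 72 were above 2.88, a share close to the 12.6% over all members.

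Members at genes of the dorsal ectoderm and amnioserosa numbered 25, at 10 genes, with a median of 2.49 against 2.37 for all members. Of the 25 wild-type regions at listed genes 21 overlapped a *gd7* region, 8 rose in *gd7* by over 2-fold and 2 fell by as much, where the shares over all wild-type regions were 40.4%, 4.12% and 2.39%. The lists were chosen with earlier results of these data known, so these counts are a description and no support for the choice of genes. Such counts were not particular to this list. Of 16 wild-type regions of the Notch signalling list 13 overlapped and 7 rose, and of 17 of the epithelial list 14 and 3. Of 12 of the mesoderm list 4 overlapped and 0 rose. The *Doc* genes gave 13 of the 25 members. At *tup* there were 4, with 2.58 and 2.01 beside a wild-type region that differed by -0.61, and 3.18 and 2.55 beside the one that was higher by 1.51. *ush* had 2.23 and 2.73, *net* 3.11, the EGF receptor gene *Egfr* 2.35 and 2.29, *emc*, which encodes an HLH inhibitor, 3.31, *edl*, a regulator of ETS factors, 2.37 and *rho*, a protease gene of EGF signalling, 2.35. The *emc* member was high while the strong wild-type region beside it, of 4.69, was lower. This was not particular to *emc*. Other high members also had a lower nearest region, as at *Doc2* (3.22, region changed by -0.85), *Mkp3* (3.37, -1.12) and *grn* (3.76, -0.95).

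Members at Dpp pathway genes numbered 9, at 4 genes, with a median of 2.48. The ligand gene *dpp* had 2, with 2.35 (560 bp wide) and 3.07 (1890 bp), 875 and 3570 bp from wild-type *dpp* regions that were higher by 0.40 and 0.90. *shn*, which encodes a zinc finger protein that acts with Mad and Medea, had members of 3.06 and 3.57, and the wild-type regions nearest to them (2.49 and 2.32) were not listed in *gd7*. *nmo*, a kinase gene, had 3.26 and 2.34 on one side of a wild-type region that was higher by 0.88. *dally*, a glypican gene, had 3 members of nearly the same height, 2.48, 2.47 and 2.48, around a wild-type region of 2.58 that was not listed in *gd7*. The wild-type regions of the listed pathway genes were 17, of which 11 overlapped a *gd7* region, 1 rose by over 2-fold and 0 fell by as much, to be read against the same 40.4%, 4.12% and 2.39%.

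Genes of the ventral and lateral embryo came next. In the neuroectoderm list 7 members at 6 genes had a median of 2.35 and a maximum of 2.58, at *SoxN*. The others were at *ths*, an FGF ligand gene (2.40), *ind*, a homeobox gene (2.46), the Sox gene *D* (2.20 and 2.33), *rho* (2.35, the member given above) and *pros* (2.10). In the mesoderm list there were 2, both 245 bp wide, with 2.14 at *sna* and 2.34 at *sim*. None of these few members was above 2.88, a value that 12.6% of all members exceeded. Of the 12 wild-type regions of the mesoderm genes 4 overlapped a *gd7* region, a share near the 40.4% over all wild-type regions.

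Genes of the anterior-posterior axis also had members. The gap genes *Kr* (2.23 and 2.65), *knrl* (2.68), *kni* (2.13) and *hkb* (2.44) had 5 members. The pair-rule list had 9, namely 5 at *ftz* (from 2.09 to 2.68), 2 at *opa* (2.04 and 2.37), 1 at *odd* (2.42) and 1 at *slp1* (2.34), the last of which was also the 1 member of the head list. In the homeotic list, *Antp* had 4, from 2.06 to 2.73, each beside a wild-type region that was more than 2-fold lower in *gd7*, and *pb* had 1, with 2.66. The segment polarity list had 3, at the Wnt antagonist gene *nkd* (2.75 and 2.57) and at *wg* (2.21). Of the wild-type regions of these lists, 5 of 5 overlapped a *gd7* region for gap genes and 16 of 21 for pair-rule genes. The counts were 10 of 12 for homeotic, 7 of 11 for segment polarity and 4 of 7 for head genes, against 40.4% of all wild-type regions.

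The Notch signalling list had 4 members, of which 2 were at genes of the Bearded family, *BobA* with 2.83 and *Tom* with 2.87. They lay 1120 and 350 bp from wild-type regions that were higher by 0.99 and 0.81. The other 2 were at *edl* and at the ubiquitin ligase gene *mib1* (2.04). The epithelial list had 3 at the adhesion gene *ed* (2.88, 2.43 and 2.02) and 1 at *Nrt* (2.26), and the Polycomb list had 1 at *RYBP* (2.43). In all, 28 genes had 3 or more members, among them, outside the lists, *Lac* and *hng3* (*CG13897*), whose strongest members were given above, and *bun*, *brat*, *dlp*, *fz2*, *kis*, *noc* and *salm*. The members reached 3.41 at the glypican gene *dlp* and 3.24 at *brat*, a translational repressor gene, while the 4 at *bun* reached 2.91 and the 3 at *salm*, a zinc finger gene, 2.89.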

How the data were processed

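Each library was immunoprecipitated or input DNA of 2 to 4 h embryos, sequenced by SOLiD. The authors aligned reads to release 5 of the genome, formed log2 ratios of ChIP over input every 35 bp, smoothed them by a running median, and joined the highest 5% of values into regions of at least 200 bp. The deposited log2 value is the mean of the highest 5 consecutive ratios less a constant of the list. That constant was added back (1.876 for wild-type, from 1999 of 3013 regions matched by centre to the study's peak list, and 1.927 for *gd7*, from 170 of 1939). The same peak list gave nearest genes and start site distances. The study gives the uniquely mapped reads of each library, but the files hold no read counts, so the depth behind each region's value is unknown here, and the lists were not scaled to each other.

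Overlap, gaps, loci and differences were computed with pandas 2.3.3 and numpy 2.4.6, checked with bedtools 2.31.1 and tested on simulated regions. Widths are end minus start, as in the files. Loci joined members at most 10 kb apart. Gene order came from RefSeq release 6 names, with 1390 of 1397 gene names matched and no coordinates used. Named were the 10 loci with most members, the 10 strongest and 10 widest members, the 5 farthest from and 5 nearest to a wild-type region, and members at genes of 12 developmental lists. Members and lists were chosen with earlier results of these data known. Intervals for shares are 95% Wilson intervals and cover counting error only. The alternatives tried were other overlap, joining, value and wild-type list definitions. No sequence was analysed here.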

Additional observations from a re-analysis of the deposited data

How the results depend on the processing

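No replicate existed, so library variation is unknown and no paired analysis was possible because each genotype had 1 library. Of 26 alternatives, 19 left a count within 1.5 times, or a median, difference or share within its 95% binomial interval. Only the median value difference from shared regions could change sign, and it stayed negative under each alternative tried for it. With *gd7* values of at least 2.5 only, the count of *gd7* regions with no wild-type region was 264 in place of 724, the median width 595 bp in place of 385 bp, and the median value difference from shared regions -0.21 in place of -0.31, since weak regions were left out. Counting regions up to 1000 bp apart as shared gave a median difference of -0.25. Joining neighbours within 20 kb gave 54 loci of 3 or more in place of 35. Against only the strongest wild-type regions, as many as in *gd7*, the median gap was 6300 bp. The count of *gd7* regions with no wild-type region then rose to 979 of 1939, so it depended on the longer wild-type list. Counting only regions with centres within 200 bp as shared gave 978. Both counts were still within 1.5 times of 724. With a 1.5-fold limit, 20.03% of members had a higher nearest wild-type region, against 9.72% of all wild-type regions. Chosen after seeing the data, half-open ends gave 729 regions and widths counted with both ends a median of 386 bp.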
